A study of Mus musculus with 6 samples.

Results

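The mitochondrially encoded transcripts are the RNAs copied from the small circular chromosome inside mitochondria. They were taken as every row of the count table whose gene name starts with mt-, which gave 37 genes of 54532 in all, with no other row on chromosome MT. They comprise 13 mRNA genes, 2 rRNA genes and 22 tRNA genes. On that chromosome 28 genes lie on the plus strand and 9 on the minus strand, namely 8 tRNA genes and mt-Nd6. The libraries came from primary hepatocytes of mice on the C57BL/6 strain background, aged 32-34 weeks, that had eaten a high-fat diet over 26 weeks. The 3 XCON libraries are Xbp1FL/FL, with floxed Xbp1 alleles and no deletion, and the 3 XCKO libraries are Xbp1ΔHep, with Xbp1 deleted in hepatocytes. No source used here gives the promoter that drove the deletion, every library comes from mice on the high-fat diet, and the comparison asks how loss of this unfolded protein response transcription factor changed hepatocyte RNA. No mouse is named for a library, so p-values measure the spread between libraries.

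Mitochondrial DNA is transcribed by the RNA polymerase Polrmt with the packaging factor Tfam into long precursors that cover nearly a whole strand. The tRNAs stand like punctuation between most mRNAs and rRNAs and are cut out by dedicated nucleases, after which the mRNAs are stabilised by proteins such as Lrpprc, and most are polyadenylated. The mRNAs encode core subunits of respiratory complexes I, III and IV and of the ATP synthase, complex V, while all other subunits and every protein that copies, cuts or translates these RNAs are encoded in the nucleus. Hepatocytes are rich in mitochondria.

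Total counts were 23919355 to 26502456 in XCON and 26477489 to 27240079 in XCKO. Xbp1 had 4453, 8021 and 9434 counts in XCON and 1458, 1013 and 1558 in XCKO (log2 fold change -2.24 ± 0.29, edgeR adjusted p = 0.00837). XCON 1 stood apart from all other libraries in its mitochondrial content, so many results that rest on it, though not all, are given with and without it. Marker genes of other liver cells were present in both groups, and no marker list held a gene at 0 in every library. The summed level of 5 cholangiocyte markers, none past 0.05, was 272 to 633 CPM (counts scaled to a fixed library total) in XCON and 80.2 to 137 CPM in XCKO. That of 8 stellate cell markers, of which 2 fell, was 279 to 672 CPM and 100 to 234 CPM, and that of 8 macrophage markers, of which 1 fell, was 971 to 1812 CPM and 283 to 702 CPM. The 5 erythroid markers, none past 0.05, summed to 45.7 to 78.1 CPM in XCON and 75.3 to 779 CPM in XCKO. The 7 sinusoidal endothelial markers, none past 0.05, summed to 513 to 537 CPM in XCON and 347 to 683 CPM in XCKO. Lymphocyte markers, none past 0.05, summed to 1.47 to 14.9 CPM in XCON and 1.81 to 3.49 CPM in XCKO. Neutrophil markers, none past 0.05, summed to 3.24 to 16.9 CPM and 2.64 to 52.7 CPM. The 7 hepatocyte markers summed to 64208 to 86644 CPM in XCON and 77136 to 93692 CPM in XCKO, with 1 past 0.05. These counts stand beside 4.05% of all tested genes that were called lower and 5.21% called higher. RNAs that stay in the nucleus, a list of 5 with 1 called lower, summed to 941, 893 and 1171 CPM in XCON and 400, 787 and 271 CPM in XCKO, with no overlap and a median log2 fold change of -1.09. The part of these differences in the mitochondrial values was not tested. In bulk RNA, fewer cells of a type and less RNA per cell cannot be told apart.

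The results below turn on the low-count mRNAs between mt-Co1 and mt-Nd4, so their sequences are shown first (5′ to 3′, GENCODE M21 transcripts on GRCm38, the same assembly as mm10). mt-Atp8, the single gene that passed the test, lies at chromosome MT, 7766 to 7969, plus strand, and its last 43 bases, in capitals, are also the start of mt-Atp6.
mt-Atp8: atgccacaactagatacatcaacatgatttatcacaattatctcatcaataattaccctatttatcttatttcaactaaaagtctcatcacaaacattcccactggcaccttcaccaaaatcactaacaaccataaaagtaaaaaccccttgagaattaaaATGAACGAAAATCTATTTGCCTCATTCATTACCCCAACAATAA
mt-Nd4l lies at 9877 to 10173 on the plus strand, and its last 7 bases, in capitals, are the start of mt-Nd4.
mt-Nd4l: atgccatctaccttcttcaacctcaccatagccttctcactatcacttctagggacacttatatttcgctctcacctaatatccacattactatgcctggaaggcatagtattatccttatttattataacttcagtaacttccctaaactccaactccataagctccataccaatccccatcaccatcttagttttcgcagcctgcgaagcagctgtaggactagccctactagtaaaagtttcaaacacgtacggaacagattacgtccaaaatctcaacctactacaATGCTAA
The start of mt-Atp6 is shown beside that of Gm10925, an unprocessed pseudogene on chromosome 1, to show how alike a mitochondrial gene and its nuclear copy are. Capitals mark the bases that mt-Atp6 shares with mt-Atp8.
mt-Atp6: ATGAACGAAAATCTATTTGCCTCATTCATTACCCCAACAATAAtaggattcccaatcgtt
Gm10925: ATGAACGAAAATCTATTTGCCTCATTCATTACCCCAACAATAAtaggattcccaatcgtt
Aligned over their shared length, mt-Atp6 and Gm10925 were identical in all 678 bases, which is 99.6% of mt-Atp6.

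In all, 7 mitochondrial mRNA genes had an annotated nuclear copy with at least 99% identity over at least 100 bases, and all 7 copies lie in a row on mm10 chromosome 1, minus strand, from 24611535 to 24616197. The row spans 4663 bases and mirrors the stretch from 6390 to 11042 of the mitochondrial chromosome, which spans 4653. The copies cover mt-Co2 (99.6% of the gene), mt-Atp6 (99.6%), mt-Co3 (99.9%), mt-Nd3 (99.1%), mt-Nd4l (98.99%), the first part of mt-Nd4 (63.6%) and the end of mt-Co1 (31.3%). Over 4140 aligned bases there were 2 mismatches. They are A1066T in mt-Co1 against Gm29216 and T3C in mt-Nd3 against Gm28438, with positions counted from 1 at the 5′ end of the mitochondrial gene and the mitochondrial base first. The windows below begin at the start of each aligned stretch, and the differing base is in capitals.
mt-Co1: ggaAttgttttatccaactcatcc
Gm29216: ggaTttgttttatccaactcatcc
mt-Nd3: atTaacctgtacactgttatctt
Gm28438: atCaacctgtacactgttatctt
The copied stretches of mt-Co2 and mt-Atp6 are separated by a gap of 233 bases on both chromosomes. All of mt-Atp8 but its last 43 bases lies in that gap, whose sequence on chromosome 1 was not analysed here, and those 43 bases, shared with mt-Atp6, are 100% identical to the start of Gm10925. No source used here says how reads that match both places, or both of 2 overlapping genes, were counted, which leaves the counts of these genes and of their copies uncertain. Apart from that shared end, the longest match of mt-Atp8 among annotated nuclear transcripts was at 81.4% identity over 167 bases. Only annotated transcripts were searched, so a near-identical unannotated copy of mt-Atp8 in that gap would have been missed.

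As a share of the library, mitochondrial counts did not separate the groups. In XCON 1, 2 and 3 they made up 22.8%, 9.79% and 9.30% of all counts, and in the XCKO libraries, in the same order, 9.59%, 8.99% and 13.1%. The mean was 14.0% ± 7.66 in XCON and 10.5% ± 2.21 in XCKO (SD, n = 3 each). XCON 1 was the highest library, XCKO 3 came next at 13.1%, and the rest lay between 8.99% and 9.79%. The groups overlapped (two-sided exact permutation test, p = 0.6, where 20 assignments allow no p under 0.1). The difference, XCKO minus XCON, was -3.42 percentage points with all libraries and 1.00 without XCON 1, so its direction rested on that library. The 95% Wilson interval of each share, which covers counting error only, reached at most 0.0168 points to either side. The 13 mRNA genes alone gave nearly the same picture, with 22.6%, 9.64% and 9.09% in XCON and 9.42%, 8.85% and 12.96% in XCKO (exact permutation p = 0.6). Their difference likewise went from -3.35 points to 1.05 without XCON 1.

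**Figure D1:**
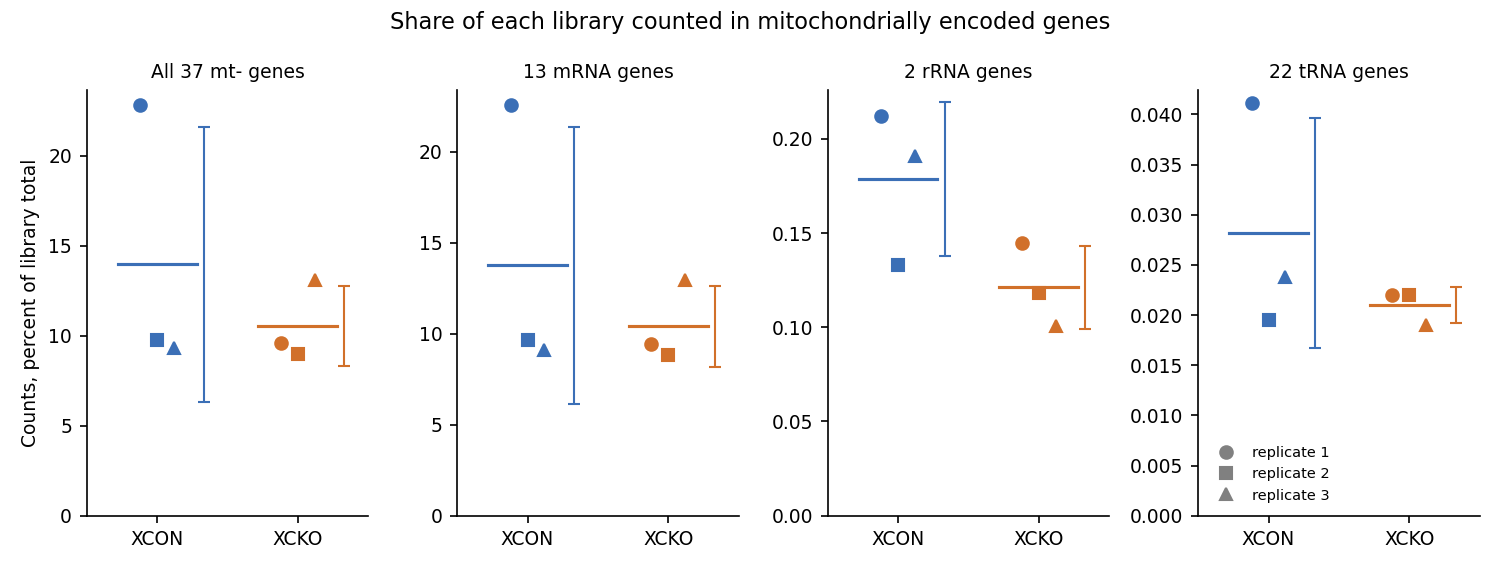
Share of each library's counts, in percent of the library total, for all 37 mitochondrial genes and for the mRNA, rRNA and tRNA classes, with each library as a point, the mean as a line and the SD as a bar (n = 3), on axes that start at 0. XCON 1 reaches 22.8% for all genes, the other libraries lie between 8.99% and 13.1%, and the groups overlap in every class.

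The rRNA and tRNA classes were small in these libraries. The rRNA genes held 0.212%, 0.133% and 0.191% of the library in XCON and 0.145%, 0.118% and 0.101% in XCKO (exact permutation p = 0.2), and the tRNA genes 0.0412%, 0.0195% and 0.0238% against 0.0220%, 0.0220% and 0.0190% (p = 0.4). For both classes the groups overlapped. Within the mitochondrial counts, mRNA made up 98.9%, 98.4% and 97.7% in XCON and 98.3%, 98.4% and 99.1% in XCKO (exact permutation p = 0.6). The rRNA share of mitochondrial counts was 0.931%, 1.36% and 2.05% against 1.51%, 1.32% and 0.770% (exact permutation p = 0.5), and the tRNA share 0.180%, 0.199% and 0.256% against 0.230%, 0.245% and 0.145% (p = 0.9). Genes annotated on the minus strand, most of whose counts are mt-Nd6, held 2.52%, 2.72% and 2.53% against 2.36%, 2.53% and 1.80% of mitochondrial counts (exact permutation p = 0.3). The strand setting of the counting is not given, so the rows of these genes may also hold reads of the other strand. None of these class shares separated the groups. XCON 1 was the highest library for each class as a share of the library, and lay inside the range of the other libraries for each class as a share of mitochondrial counts. These shares and the ratios given below make 13 exact permutation tests, with Benjamini-Hochberg adjusted values of 0.433 or more.

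Gene by gene, mt-Atp8 was the 1 mitochondrial gene of 31 tested that passed an adjusted p of 0.05, beside a background of 9.27% of all 14873 tested genes (quasi-likelihood test of edgeR, adjusted by Benjamini-Hochberg over all genes). The other 6 genes, all tRNA genes, had too few counts to be tested. The fitted log2 fold change, XCKO over XCON, was positive for 16 genes and negative for 15, with a median of 0.04 beside -0.05 for all tested genes. At an unadjusted p under 0.05 there were 6 genes, against a background of 29.7% of all tested genes, with mt-Atp8, mt-Nd4l, mt-Te and mt-Tm higher and mt-Ts2 and mt-Tn lower. The CPM values (here scaled to the TMM-normalised total) of 5 genes did not overlap and were higher in XCKO, where 17.6% of all tested genes did the same, and 1 gene did so in the other direction, where the background was 18.1%. Without XCON 1 the signs shifted to 23 positive of 31, and mt-Atp6, mt-Nd4l, mt-Te and mt-Tl2 passed along with mt-Atp8, 5 of 31 beside 3.2% of all genes in that fit. Without XCON 2, mt-Tn and mt-Atp8 passed, 2 of 31 beside 4.12%. With library totals in place of TMM factors, the median of all tested genes moved by -0.26 and 12 of the 31 were positive.

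**Figure D2:**
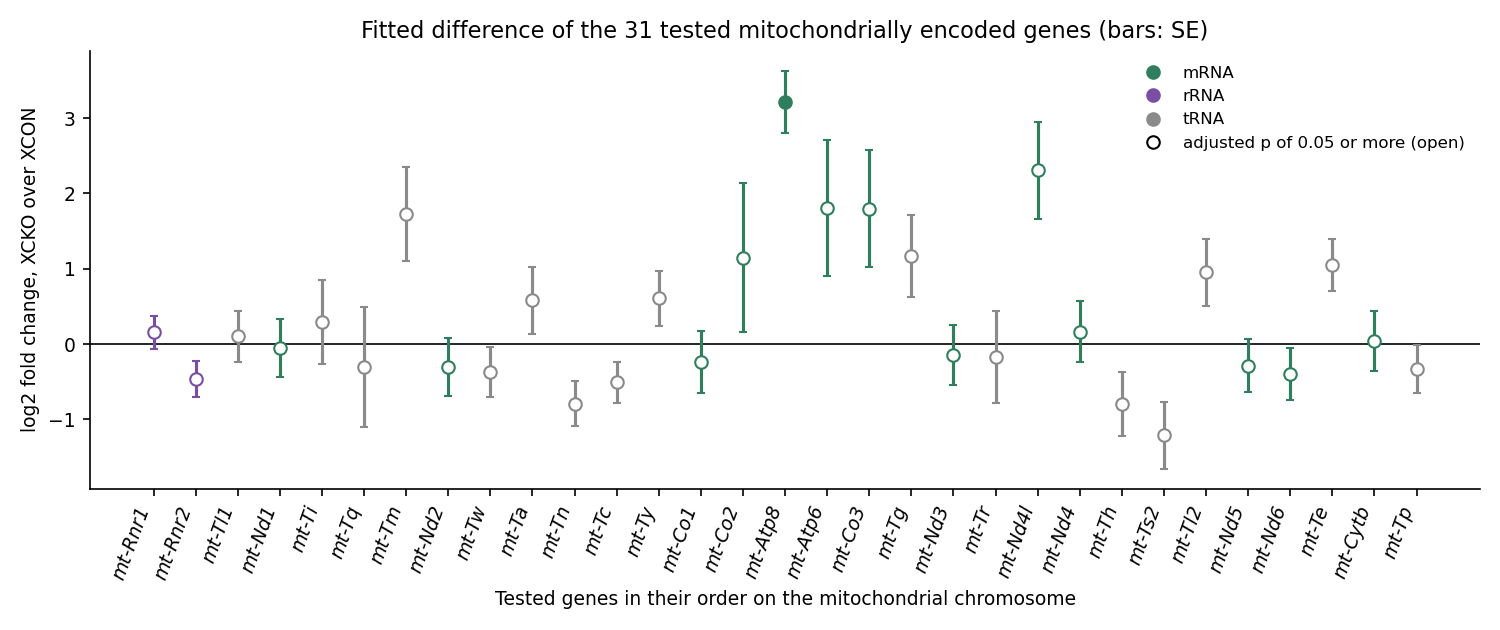
Fitted log2 fold change, XCKO over XCON, with its SE, for the 31 tested mitochondrial genes in chromosome order, where a filled point has an edgeR adjusted p under 0.05. mt-Atp8 at 3.21 is the filled point, while the abundant mRNAs mt-Co1, mt-Cytb and mt-Nd1 lie within 0.24 of 0.

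For complex V, the mitochondrial chromosome encodes the membrane-embedded ATP synthase subunits a (mt-Atp6), which forms the proton path, and A6L (mt-Atp8), a small stabilising subunit, from overlapping frames of a shared mRNA. mt-Atp8 had 24, 13 and 16 counts in XCON and 166, 91 and 181 in XCKO. Every XCKO library exceeded every XCON library, and XCON 1, for all its mitochondrial content, stayed at 24 where the lowest XCKO library had 91. The level rose from 0.646 ± 0.241 CPM to 6.02 ± 2.23 CPM (SD, n = 3 each), a 9.28-fold difference with a log2 fold change of 3.21 ± 0.42 (SE, edgeR's quasi-likelihood test, adjusted p = 0.00837). The authors' deposited table gives it a log2 fold change of 3.27 with an adjusted p of 3.18e-11. It was still the lowest mRNA by a wide margin: per length, its deposited FPKM (the authors' value, scaled by gene length and library size) was 3.1 ± 1.1 in XCON and 29.6 ± 11.4 in XCKO. The call held in each of the 6 edgeR fits that left out 1 library, with adjusted p-values of 0.00307 to 0.037. It rests on 13 to 24 counts per XCON library. mt-Atp6, on the same mRNA, stood far higher, at 427 FPKM in XCON and 1548 FPKM in XCKO. The mt-Atp8 row alone thus does not give the level of that shared mRNA. How reads in the overlap of these genes were counted is not known.

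mt-Atp6 had 18344, 2338 and 3123 counts in XCON and 24256, 16877 and 35017 in XCKO. XCON 2 and 3 lay below all XCKO libraries, and XCON 1 lay among them, so the groups overlapped in counts. As shares of mitochondrial counts, given below, they did not overlap. Its log2 fold change was 1.81 ± 0.90 (edgeR adjusted p = 0.242), and without XCON 1 it was 3.46 (adjusted p = 0.0135). Per length the gene stood at 427 ± 501 FPKM in XCON and 1548 ± 666 FPKM in XCKO.

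For complex IV, the genes mt-Co1, mt-Co2 and mt-Co3 encode the core of cytochrome c oxidase, where mt-Co1 holds the site that reduces oxygen and mt-Co2 takes electrons from cytochrome c. mt-Co1 was the most abundant mitochondrial transcript on the FPKM scale and had 2233383, 971056 and 996950 counts in XCON and 941446, 888230 and 1363717 in XCKO. XCON 1 was the highest and the groups overlapped, with a log2 fold change of -0.24 ± 0.41 (edgeR adjusted p = 0.724), which was 0.34 without XCON 1. mt-Co2 had 19372, 4092 and 2017 counts in XCON and 17747, 7512 and 26026 in XCKO. mt-Co3 had 10934, 1643 and 4533 counts in XCON and 20126, 7887 and 25043 in XCKO. For both genes the counts of XCON 2 and 3 lay below every XCKO library and that of XCON 1 lay within the XCKO range. The log2 fold change of mt-Co2 was 1.15 (edgeR adjusted p = 0.488), and 2.71 without XCON 1 (0.0788). That of mt-Co3 was 1.80 (edgeR adjusted p = 0.181), and 2.79 without XCON 1 (0.0774). On the FPKM scale mt-Co1 was at 32565 in XCON and 28445 in XCKO, mt-Co2 at 455 and 1047 and mt-Co3 at 263 and 942, as means over 3 libraries.

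In complex III, mt-Cytb encodes cytochrome b, its membrane core. It had 960493, 447988 and 437328 counts in XCON and 502038, 457151 and 743073 in XCKO. The groups overlapped, with a log2 fold change of 0.04 ± 0.40 (edgeR adjusted p = 0.955). Of the 7 complex I genes, which encode the proton-pumping membrane arm, mt-Nd1 had 496167, 224308 and 236335 counts in XCON and 244832, 228437 and 354152 in XCKO, with a log2 fold change of -0.05 ± 0.39 (adjusted p = 0.942). mt-Nd6, encoded on the opposite strand and overlapping mt-Nd5 by 14 bases, had 128594, 62373 and 56990 counts against 55975, 55080 and 59416, with a log2 fold change of -0.39 ± 0.34 (adjusted p = 0.479). For mt-Nd1 and mt-Nd6, as for mt-Cytb, the groups overlapped and XCON 1 was the highest library. Without XCON 1 the log2 fold changes were 0.59 for mt-Cytb, 0.49 for mt-Nd1 and 0.15 for mt-Nd6.

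The other abundant complex I mRNAs behaved alike in their spread. mt-Nd2 had 614833, 273646 and 266041 counts in XCON and 263846, 241625 and 337478 in XCKO. mt-Nd4 had 374277, 168514 and 164895 against 211167, 187676 and 311041, and mt-Nd5 had 534259, 267675 and 238331 against 258389, 246201 and 266190. In all 3 genes XCON 1 was the highest library and the groups overlapped. The log2 fold changes of mt-Nd2, mt-Nd4 and mt-Nd5 were -0.30, 0.16 and -0.29 with all libraries. Without XCON 1 they were 0.28, 0.74 and 0.24, and none passed in either fit. The remaining complex I genes, mt-Nd3 and mt-Nd4l, were far lower and unlike each other. mt-Nd3 had 2161, 670 and 1201 counts in XCON and 1162, 1065 and 1051 in XCKO, where the XCKO libraries lay inside the XCON range. mt-Nd4l had 1832, 612 and 603 counts against 2222, 4401 and 6934, so every XCKO library exceeded every XCON library. Its log2 fold change was 2.31 ± 0.65 (edgeR adjusted p = 0.0738), with an adjusted p of 0.0398 without XCON 1 and of 0.0145 in DESeq2, where 15.9% of genes passed. The authors' deposited table gives it 2.35 with an adjusted p of 0.0144.

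Levels per length fell into separate ranges along the chromosome. On the FPKM scale mt-Co1, mt-Cytb, mt-Nd2, mt-Nd1, mt-Nd5, mt-Nd4 and mt-Nd6, in order of their XCON means, stood at 32565, 19309, 13324, 11958, 6825, 6150 and 5719, with XCKO means of 28445, 20506, 11145, 11901, 5761, 7102 and 4478. The XCON means of neighbours in that order differed by less than the SD of the higher gene over libraries. That SD includes the high values of XCON 1, which all 7 genes share, and so does not measure differences between genes within a library. Within each XCON library the genes stood in this same order. These 7 genes held 95.7% to 98.1% of mitochondrial counts. The means of mt-Co2, mt-Atp6, mt-Co3, mt-Nd3 and mt-Nd4l, whose near-identical copies cover almost the whole gene, were 455, 427, 263, 138 and 124 FPKM in XCON and 1047, 1548, 942, 128 and 631 FPKM in XCKO. No library had any of these 5 genes as high as it had mt-Nd6, and mt-Nd4, of which the copy covers 63.6%, stood with the abundant genes.

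**Figure D3:**
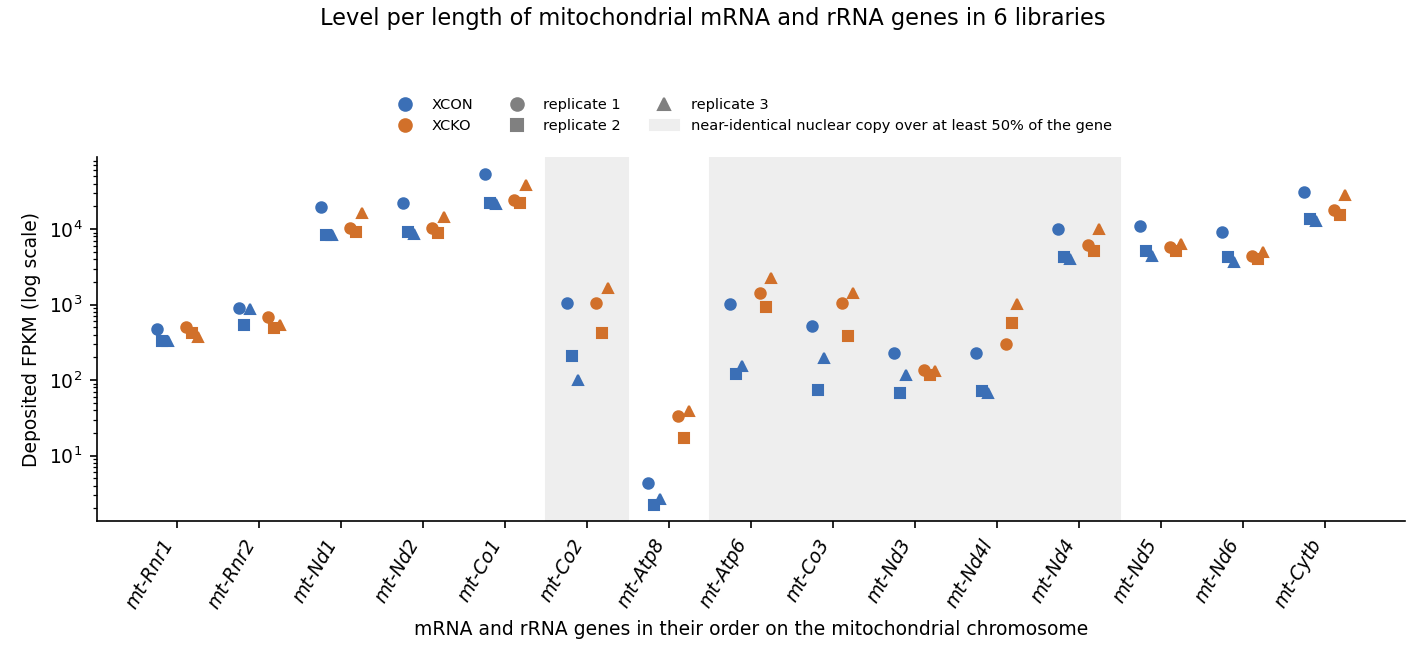
Deposited FPKM on a log axis for the mRNA and rRNA genes in chromosome order, 1 point per library, with grey bands over genes whose near-identical annotated nuclear copy covers at least 50% of the gene. Within the bands, mt-Co2, mt-Atp6, mt-Co3, mt-Nd3 and mt-Nd4l lie below mt-Nd4 and the abundant genes outside, and mt-Atp8, between the bands, is the lowest. The chromosome 1 stretch where a copy of mt-Atp8 would lie was not analysed.

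The rows of the nuclear copies carried counts as well. For mt-Co2, mt-Atp6, mt-Co3, mt-Nd3 and mt-Nd4l, the mitochondrial row held from 39.2% to 90.1% of the counts of gene and copy together, depending on gene and library. Gm10925, the copy of mt-Atp6, had 7481, 3620 and 2818 counts in XCON and 10914, 5135 and 9407 in XCKO. The mt-Atp6 row thus held 71.0%, 39.2% and 52.6% of the pair in XCON and 69.0%, 76.7% and 78.8% in XCKO. Gm10222, the copy of mt-Nd4l, had 914, 208 and 238 counts against 870, 482 and 1424, and Gm28661, the copy of mt-Co2, had 4780, 2156 and 1487 against 3996, 5003 and 7064. The groups overlapped for each of these 3 copies. All 7 copies had positive log2 fold changes, from 0.49 to 1.18, and none passed 0.05 (edgeR adjusted p from 0.183 to 0.574).

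When the counts of each gene and its copy were summed before the fit, mt-Nd4l gave a log2 fold change of 2.04 (edgeR adjusted p = 0.0941), mt-Atp6 1.57 (0.171), mt-Co3 1.64 (0.168) and mt-Co2 1.13 (0.395), and mt-Atp8 was not summed with any row. The sums for mt-Nd3, mt-Nd4 and mt-Co1 were at 0.04, 0.17 and -0.24. None of the 7 sums passed, and each had the sign of the unsummed gene apart from mt-Nd3, at -0.15 alone. How far shared reads move the single rows was not tested beyond these sums.

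**Figure D4:**
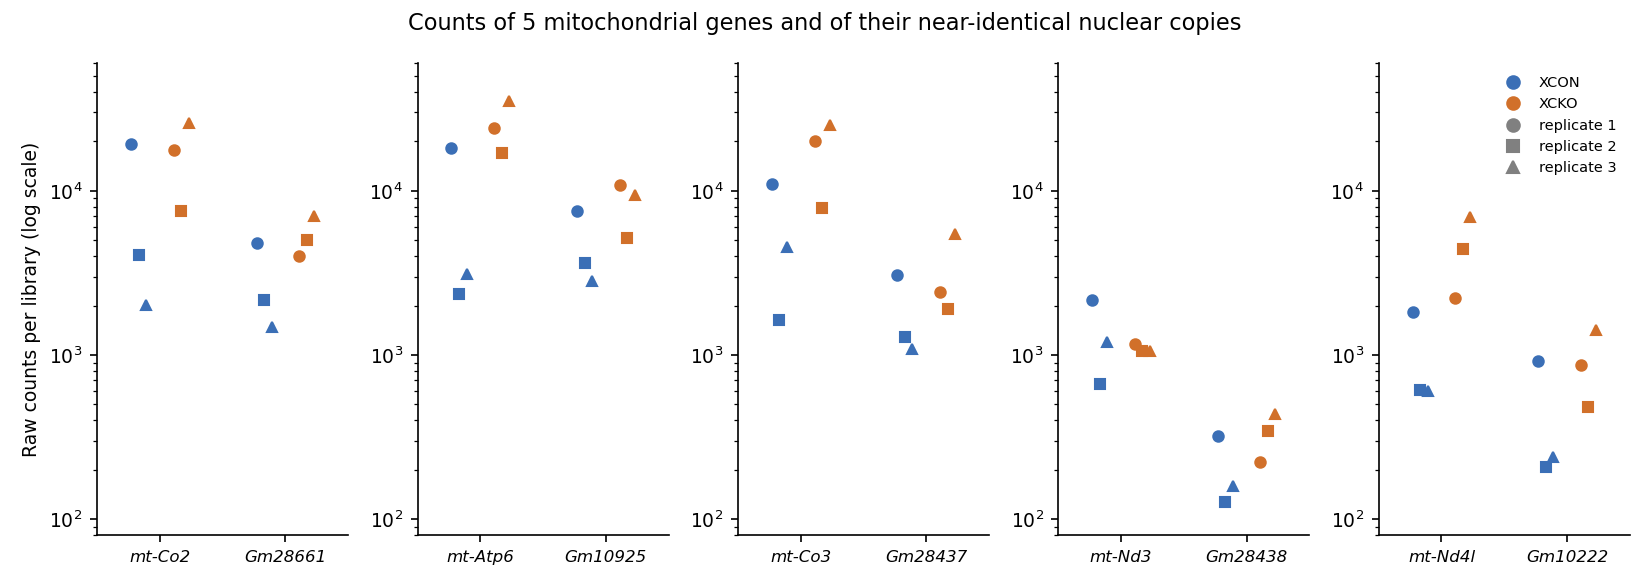
Raw counts per library on log axes for 5 mitochondrial genes and for the nuclear copy of each, with XCON in blue and XCKO in orange. XCON 1 lies above XCON 2 and 3 in all 10 rows, and in mt-Nd4l every XCKO library lies above every XCON library.

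The rRNA genes encode the RNAs of the small (mt-Rnr1, 12S) and large (mt-Rnr2, 16S) subunits of the mitochondrial ribosome and lie next to each other at the start of the heavy-strand transcript, separated by mt-Tv. mt-Rnr1 had 12106, 9031 and 9314 counts in XCON and 11918, 10618 and 7989 in XCKO, with a log2 fold change of 0.16 ± 0.22 (edgeR adjusted p = 0.659). mt-Rnr2 had 38659, 24438 and 41274 counts against 27175, 20674 and 19433, with a log2 fold change of -0.46 ± 0.24 (adjusted p = 0.238). Both genes overlapped between the groups. In their ratio the groups did not overlap: log2 of mt-Rnr2 over mt-Rnr1 was 1.68, 1.44 and 2.15 in XCON and 1.19, 0.96 and 1.28 in XCKO. The difference was -0.61 with an exact permutation p of 0.1, the smallest the design allows, and an adjusted value of 0.433 over the 13 tests. Per length, mt-Rnr1 was at 378 FPKM in XCON and 432 in XCKO, and mt-Rnr2 at 777 and 577. XCON 1, the library richest in mitochondrial mRNA, had the highest mt-Rnr1 count in its group, while its raw mt-Rnr2 count lay below that of XCON 3. Scaled for library size, XCON 1 was the highest of its group in both genes. On that scale mt-Rnr2 stood at 912, 543 and 877 FPKM in XCON 1, 2 and 3.

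The tRNA genes, each 59 to 75 bases long, were unequally covered. Whether their counts came from mature tRNAs, from precursors or from neighbouring RNAs was not tested. With no strand setting given, reads of the other strand may also be counted. These sequences show mt-Tp and mt-Te, the minus-strand tRNA genes at either side of mt-Cytb that held the most counts of their class over XCKO, as the RNA strand is annotated.
mt-Tp: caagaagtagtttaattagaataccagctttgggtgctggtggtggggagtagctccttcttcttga
mt-Te: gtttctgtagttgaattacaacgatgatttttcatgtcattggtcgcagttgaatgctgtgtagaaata
mt-Tp, the proline tRNA next to the control region, had 5414, 2926 and 2396 counts in XCON and 2461, 2864 and 2443 in XCKO, and the groups overlapped. mt-Te, the glutamate tRNA between mt-Nd6 and mt-Cytb, had 782, 305 and 410 counts against 944, 1037 and 829, with every XCKO library above every XCON library. Its log2 fold change was 1.05 ± 0.35 (edgeR adjusted p = 0.0953), and it was 1.61 without XCON 1 (adjusted p = 0.00787). With any other library left out mt-Te did not pass, at edgeR adjusted p-values of 0.166 to 0.199. DESeq2 gave mt-Te an adjusted p of 0.00946 with all libraries, and the authors' deposited table gives 0.00937.

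The asparagine, cysteine and tyrosine tRNAs lie close together on the minus strand between mt-Nd2 and mt-Co1 and did not move alike. mt-Tn had 939, 415 and 846 counts in XCON and 445, 382 and 308 in XCKO, and mt-Tc had 1552, 806 and 1540 against 1004, 689 and 743. mt-Ty had 198, 70 and 190 against 249, 190 and 182. The groups overlapped in all 3 genes on the CPM scale, with log2 fold changes of -0.79, -0.51 and 0.61. mt-Tn passed without XCON 2 (log2 fold change -1.07, edgeR adjusted p = 0.0337) and did not with all 6 libraries (adjusted p = 0.122).

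On the plus strand, mt-Tw, the tryptophan tRNA, had 295, 129 and 353 counts in XCON and 184, 152 and 193 in XCKO. mt-Tl1, the leucine tRNA behind mt-Rnr2, had 202, 86 and 237 against 187, 158 and 153, and mt-Tl2, the other leucine tRNA, had 192, 51 and 106 against 241, 188 and 179. All 3 overlapped between the groups, and mt-Tl2 passed without XCON 1 (log2 fold change 1.60, edgeR adjusted p = 0.0478) but not with it (0.95, 0.193). The tRNA genes with fewer counts included mt-Ts2, with 97, 36 and 63 counts against 20, 31 and 25, and mt-Tm, with 14, 4 and 10 against 48, 20 and 16, neither of which passed. mt-Tf and mt-Td had no count in any library, which allows up to 0.110 to 0.125 CPM per library, the level of 3 counts. Over the 16 tested tRNA genes the median log2 fold change was -0.04, with 8 positive and 8 negative.

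As shares of mitochondrial counts, which sum to 100% in each library and so cannot move independently, 13 of the 31 tested genes did not overlap between the groups, described here without a test. On the same scale 9.95% of all tested genes did not overlap, a background in which nuclear genes, unlike these, carry the spread of the mitochondrial total itself. That background is therefore not a like comparison. On the CPM scale 35.7% of all tested genes did not overlap, in either direction. mt-Co1 held 40.9%, 39.4% and 40.4% in XCON and 36.4%, 37.3% and 38.3% in XCKO. mt-Cytb held 17.6%, 18.2% and 17.7% against 19.4%, 19.2% and 20.9%, and mt-Nd4 6.86%, 6.84% and 6.69% against 8.16%, 7.89% and 8.73%. In all 3 genes the groups did not overlap, mt-Co1 being lower in XCKO and the other genes higher. mt-Nd2, at 11.3%, 11.1% and 10.8% against 10.2%, 10.2% and 9.47%, was lower without overlap. The shares of the other abundant mRNAs, mt-Nd1, mt-Nd5 and mt-Nd6, overlapped between the groups. XCON 1 lay with XCON 2 and 3 in the shares of mt-Co1, mt-Cytb, mt-Nd4 and mt-Nd2, although its share of the library was far above theirs. Of the low-count mRNAs, mt-Atp6 held 0.336%, 0.0949% and 0.127% in XCON and 0.937%, 0.709% and 0.983% in XCKO. mt-Co3 held 0.200%, 0.0667% and 0.184% against 0.778%, 0.331% and 0.703%. Both were higher without overlap on this scale, as were mt-Atp8 and mt-Nd4l, while mt-Co2 and mt-Nd3 overlapped. The counts of these low-count genes are uncertain as described above.

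The nuclear genes that make and process these RNAs were compared in the same fit. Of 10 mitochondrial transcription genes 1 passed, Mrpl12, a ribosomal protein that also binds Polrmt, which rose by a log2 fold change of 1.01 ± 0.17 (edgeR adjusted p = 0.0163). Polrmt (0.41 ± 0.14, adjusted p = 0.091) and Tfam (0.53 ± 0.18, 0.0898) did not pass, nor did Lrpprc (0.27 ± 0.17, 0.313). Among 12 genes of RNA cleavage 2 rose, namely Hsd17b10, a subunit of the enzyme that trims tRNA 5′ ends (1.14 ± 0.15, adjusted p = 0.00863), and Fastkd5, needed for maturation of mRNAs that lack a flanking tRNA (0.99, adjusted p = 0.0445). The Fastkd5 call was lost in each of the 6 fits without 1 library, with adjusted p-values of 0.0594 to 0.131. None passed among 14 genes of DNA replication (smallest p for Polg, adjusted p = 0.155), 7 of polyadenylation and decay (Pde12, 0.0971), 13 of tRNA modification (Pus1, 0.0526) and 14 of rRNA modification (Ddx28, 0.093). Pus1, which makes pseudouridine in tRNA, did pass in DESeq2 (adjusted p = 0.0179), with size factors (0.0433) and with no filter on low counts (0.0288), and Tfam passed with no filter (0.0374). Of 8 nuclear regulators of mitochondrial biogenesis, Esrra, an orphan nuclear receptor, rose (1.15 ± 0.22, adjusted p = 0.0212), and this call was lost without XCON 1, XCON 3 or XCKO 3, at up to 0.0659. All of these counts stand beside 5.21% of tested genes called higher and 4.05% called lower.

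Most nuclear-encoded subunit genes of the same complexes passed, where 1 of the 13 mitochondrial mRNA genes did. In complex I 28 of 36 rose and none fell (median log2 fold change 0.84), in complex III 9 of 9 (0.90), in complex IV 9 of 11 (0.87) and in complex V 11 of 16 (0.75), against 5.21% of all tested genes called higher and a median of -0.05. The genes with the smallest p were Ndufb6 (1.66), Ndufa2, Ndufb8 and Ndufs6 in complex I, Uqcr11 (1.67), Uqcrq, Cyc1 and Uqcrh in complex III, Cox5b (0.95), Cox6a1, Cox8a and Cox6b1 in complex IV, and Atp5k (2.28), Atp5g3, Atp5e and Atp5o in complex V. Of these, Uqcrq, Cox8a, Uqcrh and Atp5o lost the call without XCKO 3, at adjusted p-values of 0.0507 to 0.0617, Uqcrh and Atp5o also without XCON 1, and Uqcrh also without XCON 2 or XCON 3. The SE was 0.13 (Cox5b) to 0.20 (Atp5k) in the named nuclear genes and 0.34 (mt-Nd6) to 0.99 (mt-Co2) in the mitochondrial mRNA genes. The calls alone thus cannot show that the mitochondrial mRNAs did not share the rise. Without XCON 1 the abundant mRNAs had log2 fold changes of 0.15 (mt-Nd6) to 0.74 (mt-Nd4), with none past 0.05.

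The balance of mitochondrial to nuclear subunit counts was taken as log2 of their summed counts in each library. For complex I it was 5.92, 4.95 and 4.59 in XCON and 4.32, 4.13 and 4.48 in XCKO, for complex III 5.60, 4.58 and 4.18 against 3.86, 3.70 and 4.28, and for complex IV 5.91, 4.91 and 4.75 against 4.07, 3.98 and 4.48. All XCKO libraries lay below all XCON libraries in complexes I and IV, with differences of -0.84 and -1.01 (exact permutation p = 0.1 each, the smallest possible), while complex III overlapped (-0.84, p = 0.2). Complex V ran from -1.47, -4.38 and -4.48 in XCON to -1.72, -2.30 and -1.34 in XCKO, where XCON 1 lay among the XCKO libraries (difference 1.65, exact permutation p = 0.3). Without XCON 1 the differences were -0.46 in complex I, -0.43 in complex III, -0.65 in complex IV and 2.64 in complex V. With the mean of log2 counts in place of summed counts, complex I was at -0.56 (exact permutation p = 0.2) and complex IV turned to 0.30 (p = 0.8). No ratio passed after adjustment over the 13 tests. The complex I, III and IV ratios are set by the abundant genes mt-Co1, mt-Cytb, mt-Nd1, mt-Nd2, mt-Nd4 and mt-Nd5, and the complex V ratio by mt-Atp6, whose counts are uncertain as described above.

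**Figure D5:**
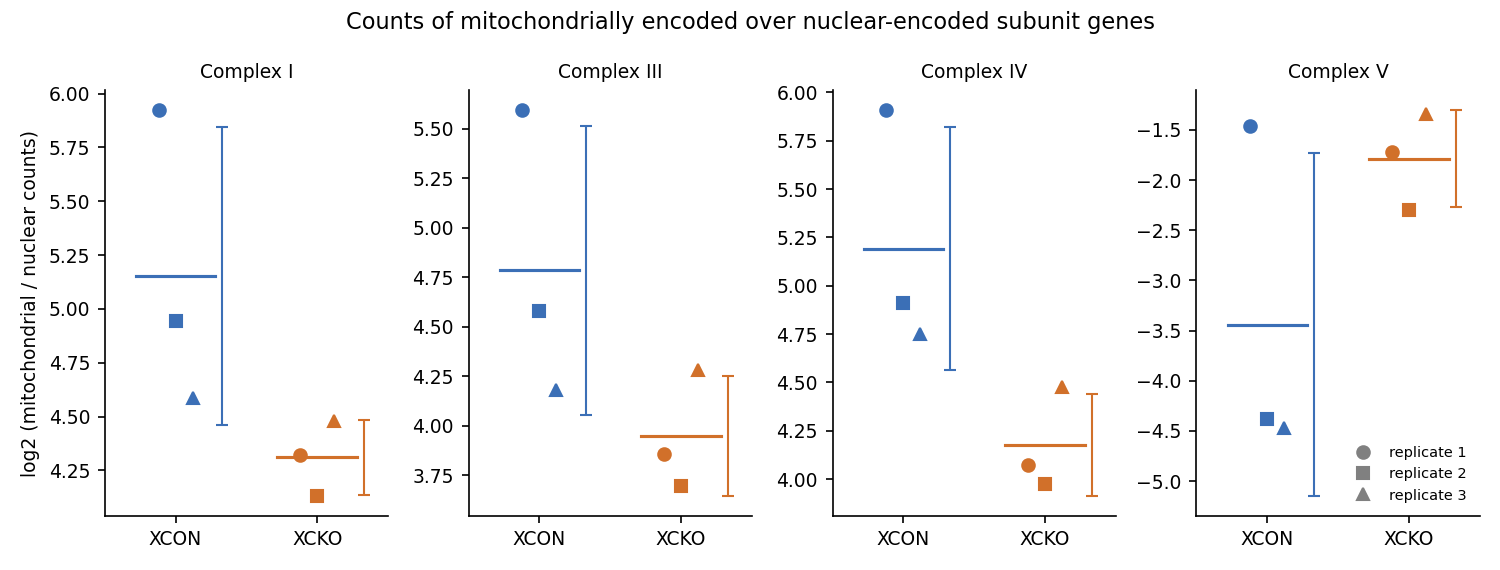
Log2 of summed mitochondrial over summed nuclear subunit counts for complexes I, III, IV and V in each library, with the mean as a line and the SD as a bar (n = 3), on axes that do not start at 0. The XCKO libraries lie below all XCON libraries for complexes I and IV, overlap them for complex III, and include XCON 1 in their range for complex V.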

How the data were processed

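RNA of 6 hepatocyte libraries was extracted with Trizol and prepared with NEBNext Ultra reagents, per the labels' protocols. No source used here gives poly(A) selection, the read counter, its strand setting or the treatment of reads with several matches. The authors deposited 1 table of raw read counts per gene, with FPKM values, group means (a signal on the scale of scaled counts, unused here), and log2 fold changes and p-values from an unnamed tool. The submitters' processing notes list Bowtie 0.12.2 and, without roles, mm8 and mm10. Lengths of all 37 genes matched GENCODE M21 on mm10.

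Counts were scaled by TMM and tested with edgeR 4.0.16 (R 4.3.3, quasi-likelihood F test, filterByExpr, group alone, 14873 genes, Benjamini-Hochberg, threshold 0.05), with SE as the absolute log2 fold change over the square root of F. Shares and ratios were compared by two-sided exact permutation tests. Mitochondrial transcripts were aligned to all nuclear GENCODE M21 transcripts with BLAST 2.17.0. The fit was tested on simulated data.

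Members, lists and alternatives were chosen with earlier results of these data known. Counts are given for every mRNA and rRNA gene and for tRNA genes with a mean of at least 100, and fits for genes past 0.05 and for 7 genes fixed by role. Of each nuclear list, up to 4 genes with the smallest p are named. Fits of further mitochondrial genes, and the counts of mt-Ts2 and mt-Tm, were chosen after their values were seen. The list genes Prorp and Ndufb1 were not found under those symbols.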

Additional observations from a re-analysis of the deposited data

How the results depend on the processing

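Alternatives were DESeq2 1.42.0, size factors, library totals, TMM without mitochondrial genes, no filter, a filter of 5 CPM, a replicate block, leaving out each library and, added after the data were seen, sums with nuclear copies and shares without the covered genes. Over all tested genes, 1378 passed, against 2507 in DESeq2, 2355 with library totals, 2160 with no filter and 309 to 810 with a library left out. Same-numbered libraries did not deviate together (correlations of 0.0268, 0.0527 and -0.149), so the numbers were not taken as pairs, and the replicate block gave 322 genes. Of mitochondrial genes 1 passed, against 3 in DESeq2, 2 with library totals, 1 with the block and 1 to 5 with a library left out. In edgeR the 5 CPM filter gave 0 of 22 tested (3 at an unadjusted p under 0.05, and 3 past adjustment in DESeq2 without that filter), since mt-Atp8 was not tested there. The backgrounds were 15.9% of genes in DESeq2, 15.8% with library totals and 13.2% with the 5 CPM filter. Leaving out a library gave differences of -5.75 to 1.00 points for the mitochondrial share, -5.69 to 1.05 for the mRNA share, and, of mitochondrial counts, -0.0706 to 0.53 for mRNA, -0.51 to 0.0538 for rRNA and -0.0245 to 0.0255 for tRNA. The complex IV ratio reversed to 0.30 with means of log2 counts, a measure that weights mt-Co2 and mt-Co3 like mt-Co1. Log2 fold changes ran from -0.49 to 0.34 (mt-Co1), -0.24 to 0.59 (mt-Cytb), -0.31 to 0.49 (mt-Nd1) and -0.63 to 0.15 (mt-Nd6) with a library left out. mt-Cytb was at -0.0259 with the 5 CPM filter and -0.24 with library totals, mt-Nd1 at 0.0363 with the replicate block and mt-Rnr1 at -0.10 with library totals. Beyond what is stated, the cause was not tested. With 3 libraries a group, shares cannot pass 0.05, and genes under about 20 counts rest on few reads.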
